A study of Mus musculus with 9 samples.

Results

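A set of 10 genes of fibroblast growth factor (FGF) signalling was followed in mouse brain RNA, 10 of 54446 gene identifiers in the count tables. The set holds the PEA3 transcription factors Etv1, Etv4 and Etv5, the ligand Fgf10, the receptors Fgfr1, Fgfr2 and Fgfr3, and the feedback genes Spry2, Spry4 and Dusp6. Etv1 and Fgf10 were selected on their CPM and log2 folds in Tfap2a+/- against wild type, and the other 8 for their place in the pathway. The question was whether Etv1 and Fgf10 moved with the pathway. All 10 passed the filter on low counts that kept 17355 genes. The brains were of adult males aged 3 to 4 months in 3 groups of 3 libraries each. They were wild type (labelled B6N), heterozygous for a knockout of Tfap2a (Tfap2a+/-) or heterozygous for a knockout of Tfap2b (Tfap2b+/-). Tfap2a and Tfap2b encode AP-2 transcription factors. No Cre driver, drug or further allele is named in the labels, and the part of the brain, the pooling of animals and the build of the knockout alleles are not given in the sources used here.

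FGF ligands bind receptor tyrosine kinases together with heparan sulfate and switch on the RAS-ERK kinase cascade. The PEA3 factors are ETS-family proteins whose genes are commonly induced by this cascade, so their RNA is often read as an output of FGF signalling. The cascade also induces its own brakes, among them the Sprouty proteins and the ERK phosphatase Dusp6. In the brain Etv1 is also known as a marker of output neurons in layer 5 of the cortex, and Fgf10 as a ligand made by tanycytes, the glia lining the hypothalamic ventricle.

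Each library held 21946800 to 29214975 counts in genes, and values are counts scaled to a common library size (CPM) by TMM, an edgeR normalisation. Tfap2a averaged 0.376 ± 0.133 CPM in its heterozygotes against 0.536 ± 0.244 CPM in wild type (SD, n = 3), from 3 to 45 counts a library in all 9. The 2 groups overlapped, so Tfap2a RNA does not settle that label. Tfap2b averaged 15.9 ± 14.8 CPM in the libraries labelled Tfap2b+/- against 5.92 ± 7.72 CPM in wild type, also with overlap. The log2 fold was 1.42 ± 0.98 (SE, edgeR adjusted p = 0.598), and the highest value, 32.9 CPM, was in library 1 of that label. The direction of the means goes against their label, though it did not pass. That name is therefore kept for them, and every direction drawn from them rests on the label alone. The tissue pieces differed in make-up: summed CPM of 8 choroid plexus markers was 4952 in wild-type library 2, and at most 1481 in Tfap2a+/- and 693 in the libraries labelled Tfap2b+/-. Tph2, the serotonin synthesis gene of raphe neurons, was at 40.9 CPM in library 1 labelled Tfap2b+/- and at most 1.55 CPM in the other 8. In bulk tissue, fewer cells of a type and less RNA per cell cannot be told apart.

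The promoters of the 4 genes that the comparisons turn on are shown because AP-2 factors and PEA3 factors bind DNA. RefSeq windows of 250 bases ending at an annotated start site (GRCm38.p6) were matched by symbol for 7 of the 10 genes, with 10 windows in all. They were searched on both strands for GCCNNNGGC, a motif of AP-2 factors, and for AGGAAG, a PEA3 motif; neither motif contains the other. Capitals mark a match, and each sequence reads 5′ to 3′ towards the start site. The Etv1 window is chr12:38779832-38780081 on the plus strand, the Fgf10 window chr13:118714449-118714698 on the plus strand, the Spry2 window chr14:105896820-105897069 on the minus strand and the Dusp6 window chr10:99262981-99263230 on the plus strand.
Etv1: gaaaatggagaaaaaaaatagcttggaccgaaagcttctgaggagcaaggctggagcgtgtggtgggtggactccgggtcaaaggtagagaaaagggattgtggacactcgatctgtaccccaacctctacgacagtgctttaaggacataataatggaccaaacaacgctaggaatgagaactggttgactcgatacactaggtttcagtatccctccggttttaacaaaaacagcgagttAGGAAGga
Fgf10: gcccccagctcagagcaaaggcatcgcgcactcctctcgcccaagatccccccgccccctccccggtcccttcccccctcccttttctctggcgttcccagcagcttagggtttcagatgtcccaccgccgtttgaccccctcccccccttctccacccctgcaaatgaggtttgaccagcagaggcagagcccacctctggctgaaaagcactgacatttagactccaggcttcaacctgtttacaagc
Spry2: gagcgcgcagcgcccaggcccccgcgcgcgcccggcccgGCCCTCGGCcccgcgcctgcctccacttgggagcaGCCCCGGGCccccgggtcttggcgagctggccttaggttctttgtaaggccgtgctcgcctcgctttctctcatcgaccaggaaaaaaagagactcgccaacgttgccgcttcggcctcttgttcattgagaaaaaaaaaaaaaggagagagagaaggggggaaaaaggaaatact
Dusp6: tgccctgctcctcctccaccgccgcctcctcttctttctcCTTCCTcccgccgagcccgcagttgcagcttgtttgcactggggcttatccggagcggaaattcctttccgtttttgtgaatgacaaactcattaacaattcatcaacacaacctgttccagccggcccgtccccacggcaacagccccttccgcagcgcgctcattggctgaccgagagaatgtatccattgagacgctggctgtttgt
The printed Etv1 window held 1 AGGAAG, whose first base lies 8 bases before the start; another Etv1 window, chr12:38783461-38783710, held neither motif. The Fgf10 window held neither motif. The Spry2 window held GCCNNNGGC at 211 and 176 bases before the start, and the Dusp6 window held AGGAAG on the opposite strand at 210 bases. Matches also lay in windows of genes that are not printed. An Etv5 window held GCCNNNGGC at 111 bases before the start, and another Etv5 window held neither motif. The Fgfr2 window held AGGAAG at 208 bases, and the Fgfr3 windows held neither motif. Of 32851 RefSeq windows of the same length, 13.7% held GCCNNNGGC and 29.5% held AGGAAG. A match describes letters only and is no measurement of binding.

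Across the 10 genes, levels per length of exon put Etv5, Spry2, Fgfr3 and Dusp6 at the top. Averaged over the 9 libraries, Etv5 stood at 24.9 CPM per kb of exon, Spry2 at 22.3, Fgfr3 at 15.9 and Dusp6 at 15.6. Fgfr1 at 8.42 CPM per kb, Etv1 at 8.20 and Fgfr2 at 6.23 formed a middle range. Spry4 at 3.35 CPM per kb, Etv4 at 2.28 and Fgf10 at 1.93 were the lowest. Exon lengths are unions over all annotated transcripts, so neighbours in this order cannot be ranked where the true transcript is shorter.

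**Figure D1:**
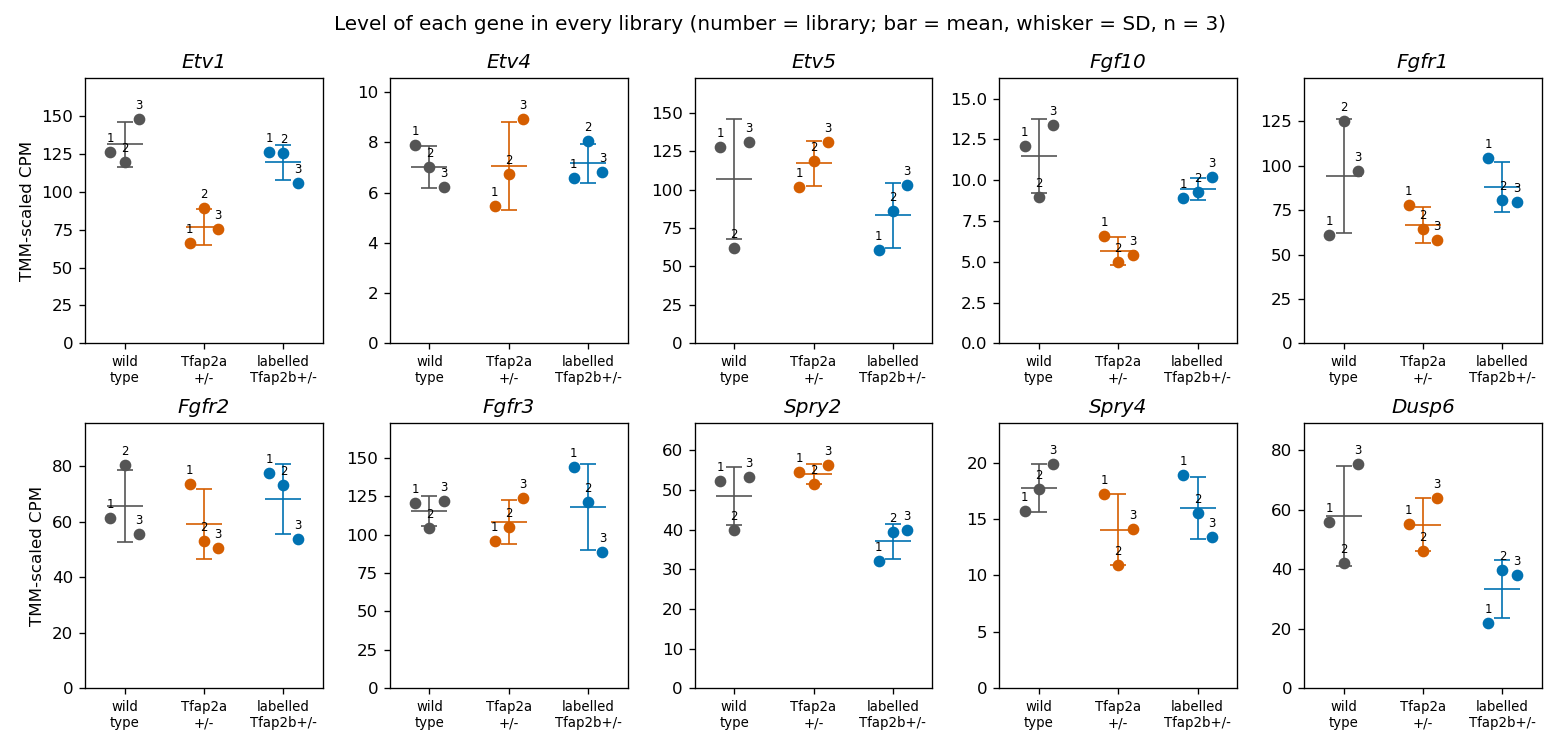
TMM-scaled CPM (vertical axes, from 0) of the 10 genes in every library of the 3 groups (horizontal axes); numbered points are libraries, the long bar is the mean and the whisker the SD (n = 3). All Tfap2a+/- points of Etv1 (66.0 to 89.1 CPM) and Fgf10 (4.99 to 6.61 CPM) lie under every other point of the same gene.

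Among the PEA3 factors, Etv1 was low in Tfap2a+/-, while Etv4 and Etv5 overlapped wild type with wide intervals. Etv1 (ENSMUSG00000004151.17, chromosome 12, 38779380 to 38870484, plus strand, GRCm38) had values of 126, 120 and 148 CPM in libraries 1 to 3 of wild type. The corresponding Tfap2a+/- values were 66.0, 89.1 and 75.1 CPM. Those labelled Tfap2b+/- had 126, 126 and 106 CPM. The Tfap2a+/- libraries lay under all 6 others, and the other 2 groups overlapped. The log2 fold of Tfap2a+/- against wild type was -0.77 ± 0.13 (SE); these are the values that chose the gene, so no test is given. Against the libraries labelled Tfap2b+/- it was -0.64 ± 0.13 (SE), again without a test. The libraries labelled Tfap2b+/- differed from wild type by -0.14 ± 0.13 (SE) on the log2 scale, which did not pass (edgeR adjusted p = 0.699). That comparison shares the wild-type libraries with the one that chose Etv1.

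Etv4 (ENSMUSG00000017724.14, chromosome 11, 101769742 to 101785371) was the least abundant PEA3 factor, at 151 to 239 counts a library. Wild-type values were 7.89, 7.0 and 6.22 CPM, Tfap2a+/- values 5.48, 6.73 and 8.94 CPM and those labelled Tfap2b+/- 6.60, 8.05 and 6.83 CPM. The 3 groups overlapped, with means of 7.04 ± 0.837, 7.05 ± 1.75 and 7.16 ± 0.783 CPM (SD, n = 3). Its log2 fold in Tfap2a+/- against wild type was 0.00 ± 0.19 (SE), with a 95% interval from -0.44 to 0.44.

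Etv5 (ENSMUSG00000013089.15, chromosome 16, 22381309 to 22439719) varied more between libraries than between groups. Wild-type values were 128, 61.8 and 131 CPM, Tfap2a+/- values 102, 118 and 131 CPM and those labelled Tfap2b+/- 60.9, 85.8 and 103 CPM. The lowest values were wild-type library 2 and library 1 labelled Tfap2b+/-, which are also the choroid-rich library and the library with Tph2. Its log2 fold was 0.13 ± 0.29 (SE) in Tfap2a+/- and -0.36 ± 0.29 (SE) in the libraries labelled Tfap2b+/- against wild type (edgeR adjusted p = 0.9993 and 0.644). The first turned to -0.045 when 3 libraries were left out, chosen after seeing the data for much choroid plexus RNA or Tph2: library 2 of wild type, library 1 of Tfap2a+/- and library 1 labelled Tfap2b+/-.

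The ligand Fgf10 (ENSMUSG00000021732.14, chromosome 13, 118669791 to 118792115, plus strand) was also low in Tfap2a+/-. Its wild-type values were 12.1, 8.96 and 13.4 CPM. In Tfap2a+/- the values were 6.61, 4.99 and 5.39 CPM, and in those labelled Tfap2b+/- they were 8.89, 9.30 and 10.2 CPM. The highest Tfap2a+/- value lay under the lowest of the other 6 libraries, and the other 2 groups overlapped. The log2 fold was -1.02 ± 0.17 (SE) against wild type and -0.74 ± 0.17 (SE) against the libraries labelled Tfap2b+/-, both without a test for the same reason as Etv1. The libraries labelled Tfap2b+/- averaged 9.46 ± 0.659 CPM and wild type 11.5 ± 2.28 CPM (SD, n = 3). The log2 fold between them was -0.28 ± 0.17 (SE) and did not pass (edgeR adjusted p = 0.557). These values rest on 112 to 347 counts a library, a counting error of at most 9.45%. A gene on the other strand, Gm16263, overlaps Fgf10; the counting kept strands apart, and 13 to 40 counts a library fell on that other strand.

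Levels of region markers are set beside these 2 genes. The summed level of 10 striatal markers, such as Adcy5 and Pde10a, ran from 885 to 2813 CPM in Tfap2a+/-, from 412 to 1221 CPM in wild type and from 370 to 911 CPM in the libraries labelled Tfap2b+/-, with none at 0. All 10 had a higher mean in Tfap2a+/- than in wild type. The striatal sums of Tfap2a+/- and wild type overlapped, with 885 CPM in Tfap2a+/- library 3 and 1221 CPM in wild-type library 2. The 8 layer 5 markers, such as Bcl11b and Tshz2, summed to 324 to 474 CPM in Tfap2a+/-, 382 to 571 CPM in wild type and 435 to 487 CPM in the libraries labelled Tfap2b+/-; none was at 0, and 5 of 8 had a lower mean in Tfap2a+/- than in wild type. The named pair went opposite ways: Tshz2 was at 37.6 ± 5.24 CPM in Tfap2a+/- beside 98.4 ± 71.0 CPM in wild type, and Bcl11b at 154 ± 53.0 CPM beside 102 ± 20.7 CPM (SD, n = 3). The list's median was -0.15. Hypothalamic and tanycyte markers summed to 15.4 to 17.4 CPM in Tfap2a+/-, 12.4 to 25.4 CPM in wild type and 11.9 to 26.8 CPM in the libraries labelled Tfap2b+/-. Col23a1 made up most of the sum in Tfap2a+/-, at 12.5 ± 1.85 CPM beside 10.8 ± 4.84 CPM in wild type. Pomc was at 1.21 ± 1.09 CPM beside 6.79 ± 7.55 CPM (SD, n = 3). Of the 10 markers 5 passed the filter, 2 with a higher and 3 with a lower mean in Tfap2a+/- than in wild type (median log2 fold -0.26). Rax, which defines tanycytes, was at 0 in at least 1 library, as were Hcrt, Agrp and Six6. Thalamic markers, such as Rora and Prkcd, summed to 198 to 276 CPM in Tfap2a+/- and 286 to 372 CPM in wild type, without overlap. All 7 had a lower mean in Tfap2a+/-, 4 of them without overlap, beside 4.32% of all genes. Rora and Prkcd themselves overlapped. In edgeR 0 of the 7 had an unadjusted p under 0.05, beside 3.84% of all genes. Hippocampal markers, such as Wfs1 and Prox1, summed to 133 to 213 CPM beside 122 to 395 CPM, and all 8 had a lower mean. The part of layer 5, striatal, hypothalamic, thalamic or hippocampal content in the Etv1 and Fgf10 values was not tested.

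The receptors did not separate the groups, apart from Fgfr1 between the 2 heterozygotes. Fgfr1 (ENSMUSG00000031565.18, chromosome 8, 25513654 to 25575718) had wild-type values of 60.9, 125 and 96.8 CPM, Tfap2a+/- values of 78.1, 64.2 and 58.0 CPM and values of 104, 80.6 and 79.7 CPM in those labelled Tfap2b+/-. Tfap2a+/- lay under the libraries labelled Tfap2b+/- without overlap, by a log2 fold of -0.40 ± 0.24 (SE) that did not pass (edgeR adjusted p = 0.532). It overlapped wild type, with a log2 fold of -0.50 ± 0.24 (SE). A gene on the other strand, Gm16159, overlaps Fgfr1. Fgfr1 was highest in wild-type library 2 and library 1 labelled Tfap2b+/-, the 2 libraries in which Etv5 was lowest.

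Fgfr2 (ENSMUSG00000030849.18, chromosome 7, 130162451 to 133123350), the main receptor of Fgf10, had wild-type values of 61.2, 80.2 and 55.6 CPM, Tfap2a+/- values of 73.5, 53.2 and 50.4 CPM and values of 77.6, 73.1 and 53.9 CPM in those labelled Tfap2b+/-. Its log2 folds were -0.15 ± 0.20 (SE) and 0.05 ± 0.20 (SE) against wild type. The 4 libraries of highest Fgfr2 were the 4 of highest summed oligodendrocyte markers, such as Mbp: the sums were 7146 CPM in wild-type library 2, 5819 CPM in Tfap2a+/- library 1 and 7250 and 6711 CPM in libraries 1 and 2 labelled Tfap2b+/-. The part of oligodendrocyte content in Fgfr2 was not tested, and the annotated span of Fgfr2 holds other genes. Fgfr3 (ENSMUSG00000054252.18, chromosome 5, 33721674 to 33737068), known from astrocytes, ranged from 88.5 to 144 CPM over the 9 libraries with overlapping groups. Its highest value, 144 CPM, was in library 1 labelled Tfap2b+/-. Its log2 folds against wild type were -0.09 ± 0.17 (SE) in Tfap2a+/- and 0.03 ± 0.17 (SE) in the libraries labelled Tfap2b+/-.

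The feedback genes Spry2 and Dusp6 stayed near wild type in Tfap2a+/- and were low in the libraries labelled Tfap2b+/-. Spry2 (ENSMUSG00000022114.5, chromosome 14, 105891947 to 105896819), an inhibitor of receptor tyrosine kinase signalling, had wild-type values of 52.2, 40.01 and 53.2 CPM. In Tfap2a+/- the values were 54.4, 51.4 and 56.4 CPM, and in those labelled Tfap2b+/- they were 32.0, 39.5 and 39.9 CPM. All libraries labelled Tfap2b+/- lay under all 6 others, the nearest pair being 39.9 and 40.01 CPM. Against wild type the log2 fold was -0.38 ± 0.13 (SE), with an unadjusted p of 0.0153 and an adjusted p of 0.406 in edgeR and 0.231 in DESeq2. In Tfap2a+/- it was 0.16 ± 0.13 (SE) against wild type, with a 95% interval from -0.13 to 0.45. Between the heterozygotes it was 0.54 ± 0.13 (SE), with an edgeR adjusted p of 0.330 and a DESeq2 adjusted p of 0.0281, so only DESeq2 called it.

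Dusp6 (ENSMUSG00000019960.8, chromosome 10, 99263231 to 99267489), which dephosphorylates ERK, had wild-type values of 55.9, 42.1 and 75.5 CPM. In Tfap2a+/- the values were 55.2, 46.1 and 63.9 CPM, and in those labelled Tfap2b+/- they were 22.1, 39.9 and 38.1 CPM. The libraries labelled Tfap2b+/- lay under all 6 others, and wild type and Tfap2a+/- overlapped. The log2 fold of the libraries labelled Tfap2b+/- against wild type was -0.79 ± 0.27 (SE), with an unadjusted p of 0.0155 and an adjusted p of 0.408 in edgeR and 0.163 in DESeq2. In Tfap2a+/- it was -0.07 ± 0.26 (SE), with a 95% interval from -0.67 to 0.53. Between the heterozygotes it was 0.72 ± 0.27 (SE), with an edgeR adjusted p of 0.390. Spry4 (ENSMUSG00000024427.6, chromosome 18, 38586247 to 38601415), a second Sprouty gene, did not share this order. It ranged from 10.9 to 19.9 CPM with overlapping groups, and its log2 folds against wild type were -0.33 ± 0.19 (SE) in Tfap2a+/- and -0.15 ± 0.19 (SE) in the libraries labelled Tfap2b+/-.

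**Figure D2:**
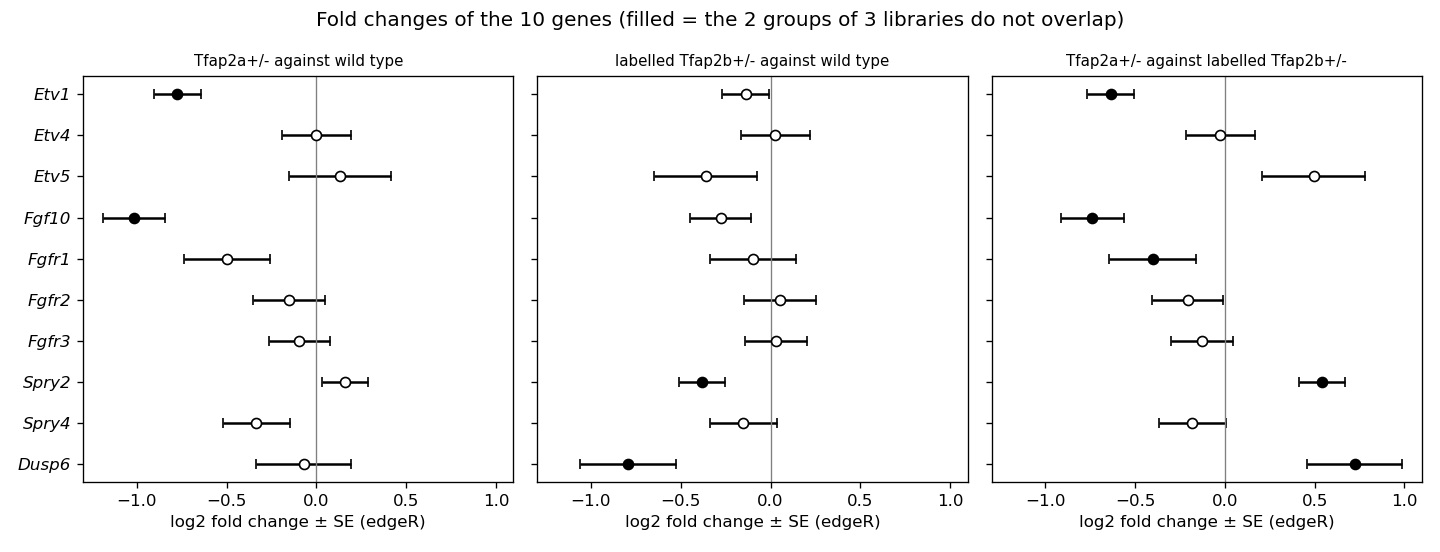
Log2 fold change (horizontal axes, edgeR, whisker = SE) of the 10 genes (vertical axis) in the 3 comparisons; a filled point marks 2 groups of 3 libraries that do not overlap. Etv1 and Fgf10 are filled in the comparisons that include Tfap2a+/-, while Spry2 and Dusp6 are filled in those that include the libraries labelled Tfap2b+/-.

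In Tfap2a+/- against wild type, 7 of the 10 genes had a lower mean, beside 51.8% of all genes tested, and 3 a higher one. The median of their log2 folds was -0.12, beside -0.01 over all genes tested. Etv1 and Fgf10 were the 2 whose groups did not overlap, both lower, beside 4.32% of all genes; since they were chosen by these values, nothing is read from the count. None lay higher without overlap, beside 4.85% of all genes. The 8 genes chosen for their place in the pathway had a median log2 fold of -0.08. None of the 8 had an unadjusted p under 0.05, beside 3.84% of all genes, and their edgeR adjusted p were 0.9993 or more. EdgeR called 0 of the 17355 genes in this comparison, with 666 at an unadjusted p under 0.05 and 30 (0.173%) called by DESeq2.

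In the libraries labelled Tfap2b+/- against wild type, 7 of the 10 genes again had a lower mean, beside 50.3% of all genes. The median of their log2 folds was -0.15, beside -0.0012 over all genes. Spry2 and Dusp6 were the 2 whose groups did not overlap, both lower, beside 7.63% of all genes; none lay higher without overlap, beside 8.84%. They were also the 2 with an unadjusted p under 0.05, beside 10.6% of all genes. EdgeR called 0 genes, with 1841 at an unadjusted p under 0.05 and 175 (1.03%) called by DESeq2. Between the heterozygotes 7 of the 10 had a lower mean in Tfap2a+/-, beside 51.7% of all genes. Etv1, Fgf10 and Fgfr1 lay lower in Tfap2a+/- without overlap, beside 9.2% of all genes, and Spry2 and Dusp6 lay higher without overlap, beside 8.03%. EdgeR again called 0 genes, with 1997 (11.5%) at an unadjusted p under 0.05 and 221 (1.3%) called by DESeq2. The 3 comparisons share libraries by pairs, so they are not independent of each other.

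**Figure D3:**
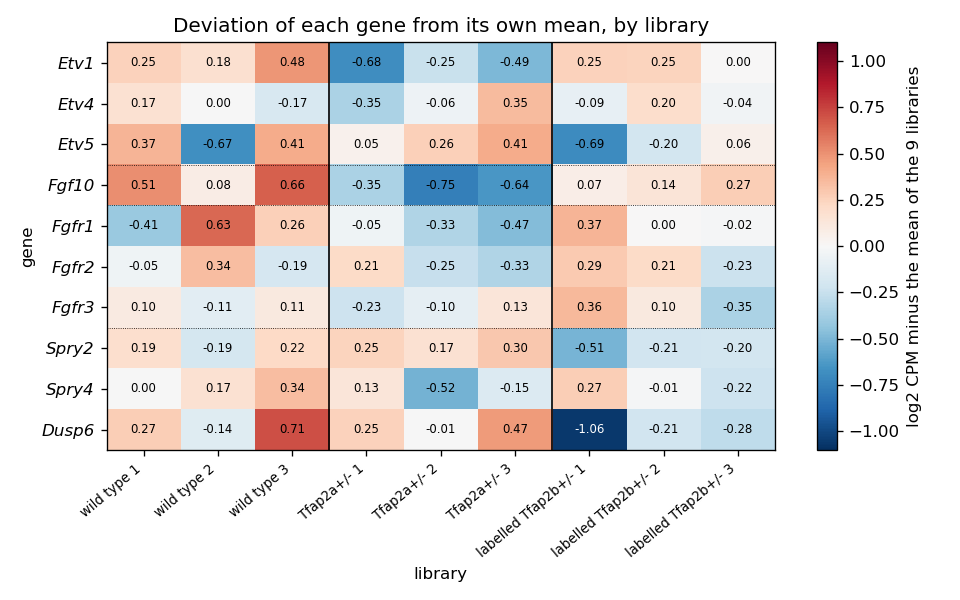
Log2 CPM of each gene minus its own mean over the 9 libraries (colour and printed value), with genes as rows and libraries as columns in 3 groups. Etv1 and Fgf10 are below their means in all Tfap2a+/- columns, and Spry2 and Dusp6 in all columns labelled Tfap2b+/-; Etv5 is lowest in wild-type library 2 and library 1 labelled Tfap2b+/-.

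Whether Etv1 and Fgf10 moved together apart from genotype was asked of the deviations of log2 CPM from the genotype mean. Over the 9 libraries the 2 genes gave Pearson r = -0.14 (exact permutation within genotypes, two-sided p = 0.722) and Spearman rho = -0.25 (exact permutation p = 0.579). Without the 2 libraries farthest from the median of Etv1, r was -0.33. The family held 17 pairs, Etv1 with Fgf10 and each with the other 8 genes, and the smallest p it allows is 0.00463. One of the 17 had a raw p under 0.05 and 0 after Benjamini-Hochberg adjustment.

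That pair was Fgf10 with Spry2, at r = 0.77 (exact permutation p = 0.0370, adjusted 0.630) and rho = 0.80 (exact permutation p = 0.0278, adjusted 0.472). It was 0.49 without the 2 libraries farthest from the median of Fgf10, so much of it rests on them. Fgf10 also gave r = 0.67 with Dusp6 (rho = 0.73; exact permutation p = 0.0880 and 0.0648, adjusted 0.748 and 0.512) and r = 0.66 with Etv5 (rho = 0.70; exact permutation p = 0.176 and 0.106, adjusted 0.748 and 0.512). Without the 2 farthest libraries these were 0.39 and 0.17. With Spry4 and Etv4 Fgf10 gave r = 0.32 and -0.37. For Etv1 the largest r was 0.58 with Fgfr3 (rho = 0.65; exact permutation p = 0.139 and 0.120, adjusted 0.748 and 0.512), and it was 0.84 without the 2 farthest libraries. Etv1 gave r = 0.21 with Etv5, 0.11 with Etv4, 0.028 with Spry2, -0.15 with Spry4 and 0.0074 with Dusp6. Etv1 had a positive r with 5 of the 8 other genes and Fgf10 with 4 of the 8. With 3 libraries a genotype, these values do not show that the genes varied independently.

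**Figure D4:**
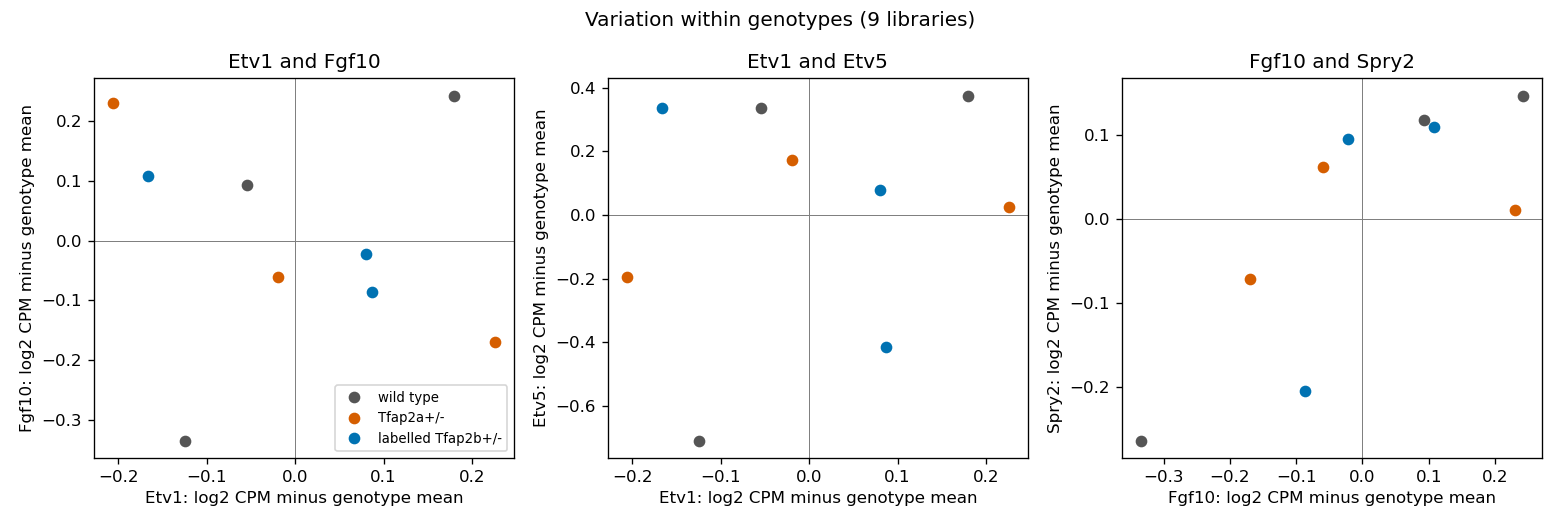
Deviations of log2 CPM from the genotype mean for 3 pairs of genes (both axes on the log2 scale), each point a library coloured by group (9 libraries). Etv1 and Fgf10 gave r = -0.14 and Etv1 and Etv5 r = 0.21, while Fgf10 and Spry2 gave r = 0.77 (adjusted exact permutation p = 0.630).

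Genes with the most similar pattern over the 9 libraries were taken among 14695 others, as a description without a test. For Etv1 they were Sms, which makes spermine (r = 0.92), Pck2, a mitochondrial enzyme of gluconeogenesis (r = 0.90), and Chst8, a sulfotransferase (r = 0.90). Sms stood at 76.1 ± 5.33 CPM in Tfap2a+/- and 99.2 ± 10.8 CPM in wild type (SD, n = 3). For Fgf10 they were the non-coding RNA 2610035D17Rik (r = 0.93), the circadian repressor gene Ciart (r = 0.90) and Gm43032 (r = 0.87). The RNA 2610035D17Rik stood at 4.93 ± 0.924 CPM in Tfap2a+/- and 13.1 ± 0.817 CPM in wild type (SD, n = 3). No gene appeared in both lists of 3, and these r include the genotype difference that chose Etv1 and Fgf10; within genotypes, r with Etv1 was 0.68 for Sms, 0.57 for Pck2 and 0.76 for Chst8. For Fgf10 it was 0.38 for 2610035D17Rik, 0.93 for Ciart and 0.55 for Gm43032.

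The rest of the pathway was read from 8 lists with 113 genes. In Tfap2a+/- against wild type edgeR called 0 of the 103 tested, with 10 at an unadjusted p under 0.05 (beside 3.84% of all genes), and DESeq2 called 0. The list medians lay between -0.028 and 0.037 except for the immediate early genes. Genes named from these lists were picked as the 2 of smallest p in a list. Over all genes tested, 4.32% lay lower and 4.85% higher without overlap. Of 11 other FGF ligands tested, of 17, 5 had a higher and 6 a lower mean, and the list's median was -0.02. Fgf7, a ligand of the same subfamily as Fgf10, stood at 0.315 ± 0.134 CPM in Tfap2a+/- and 0.534 ± 0.0738 CPM in wild type, without overlap. Fgf17 was at 0.618 ± 0.298 and 0.244 ± 0.0988 CPM, with overlap; both genes are close to the limit of counting. Fgf14, 1 of 4 intracellular homologues that act on ion channels, was higher without overlap at 60.8 ± 6.60 CPM beside 51.2 ± 2.4 CPM (log2 fold 0.25 ± 0.10, SE; edgeR adjusted p = 0.999).

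Of the other receptors and co-receptors, 5 of 6 tested had a higher mean in Tfap2a+/-, with a median of 0.04. Of 9 other feedback inhibitors, 5 had a higher and 4 a lower mean. Among them Dusp5, a nuclear ERK phosphatase, stood at 9.35 ± 2.55 CPM beside 16.99 ± 6.41 CPM in wild type, overlapping (log2 fold -0.86 ± 0.29, SE; edgeR adjusted p = 0.999). Of 19 RAS-ERK genes, 7 had a higher mean, and 1 lay lower and 1 higher without overlap. The scaffold Ksr1 was the lower one, at 51.9 ± 3.20 CPM beside 79.1 ± 20.0 CPM. Hras was the higher one, at 78.4 ± 5.39 CPM beside 69.9 ± 5.46 CPM. Of 26 heparan sulfate genes, 14 had a higher mean, and 3 lay lower and 1 higher without overlap. Sulf2, which removes sulfate from heparan sulfate, was among the lower ones at 95.5 ± 12.8 CPM beside 130 ± 9.58 CPM. So was the glypican Gpc1, at 78.7 ± 10.7 CPM beside 111 ± 23.6 CPM. Of 14 other ETS factors, 7 had a higher and 7 a lower mean, and Elk4 was lower without overlap at 25.1 ± 1.97 CPM beside 29.3 ± 0.662 CPM.

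**Figure D5:**
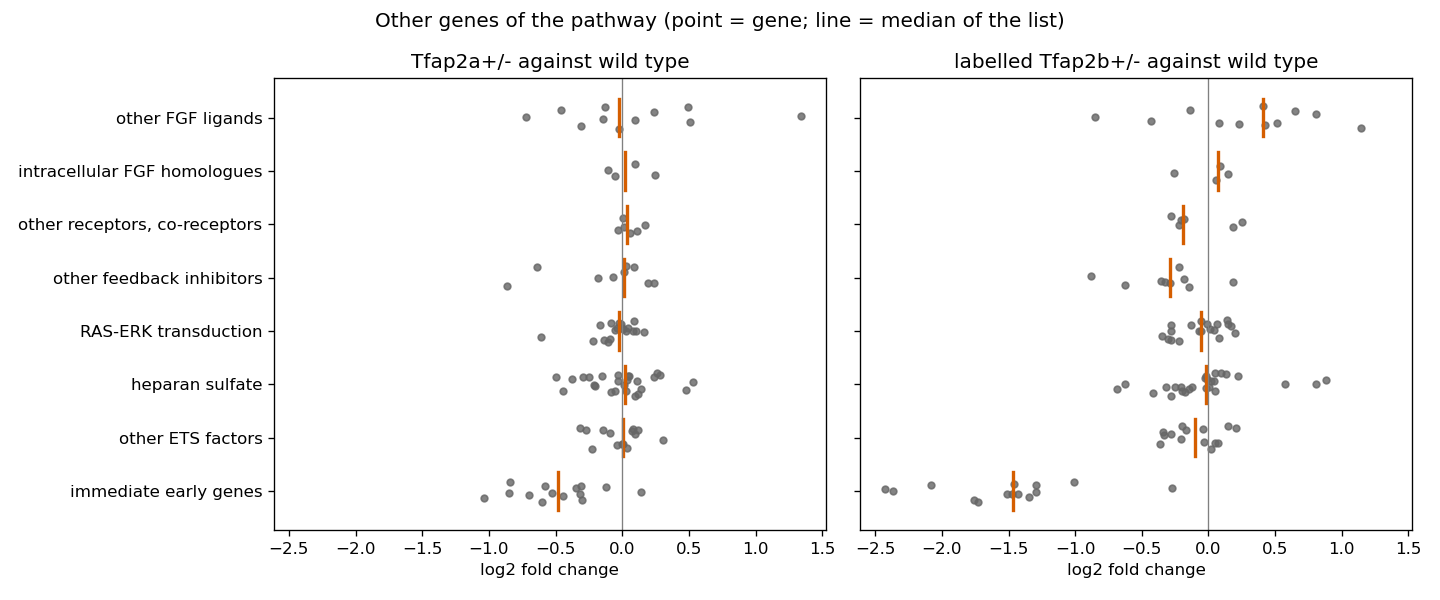
Log2 fold change (horizontal axes) of the tested genes of 8 other FGF pathway lists (rows) in Tfap2a+/- and in the libraries labelled Tfap2b+/-, both against wild type; points are genes and the orange line is the list's median. The immediate early genes have medians of -0.48 and -1.47; the other lists lie between -0.028 and 0.037 in Tfap2a+/- and between -0.29 (other feedback inhibitors) and 0.41 (other FGF ligands) in the libraries labelled Tfap2b+/-.

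In the libraries labelled Tfap2b+/-, the immediate early genes had the median farthest from 0 of the 8 pathway lists. Of the 9 other feedback inhibitors 8 lay lower in mean than wild type, beside 50.3% of all genes, and the list's median was -0.29; 1 of the 9 did not overlap with wild type, beside 7.63% of all genes. That gene was Dusp5, at 9.23 ± 1.17 CPM (log2 fold -0.88 ± 0.29, SE; edgeR adjusted p = 0.400). All 14 immediate early genes, which neuronal activity and ERK switch on within minutes, lay lower in mean; the list's median was -1.47. Of these, 11 did not overlap with wild type, beside 7.63% of all genes, and 13 had an unadjusted p under 0.05, beside 10.6%; edgeR called 0 and DESeq2 10, Dusp1 and Arc among them. No member of the other 7 lists was called by either tool. Dusp1, a phosphatase of the same family as Dusp6, stood at 13.8 ± 0.311 CPM beside 37.9 ± 13.4 CPM in wild type (log2 fold -1.46 ± 0.26, SE; edgeR adjusted p = 0.228). Arc, a synaptic activity gene, stood at 52.8 ± 9.66 CPM beside 283 ± 169 CPM (log2 fold -2.42 ± 0.48, SE; edgeR adjusted p = 0.260).

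In Tfap2a+/- 13 of the 14 immediate early genes had a lower mean than wild type, with a median of -0.48. Of the 14, 0 separated from wild type. Dusp6 was at -0.07 and Spry2 at 0.16 in that comparison. Within wild type every immediate early gene but Ier3 was highest in library 3, as was Dusp6. Fos reached 90.5 CPM there, beside 23.5 CPM in library 1 and 16.3 CPM in library 2. The Tfap2a+/- mean of Fos, 24.1 CPM, lay above the latter 2 values. That of Dusp1, 25.4 CPM, lay under every wild-type value, the lowest being 26.2 CPM. The part of wild-type library 3 in the medians of -0.48 and -1.47 was not tested. Between the heterozygotes all 14 had a higher mean in Tfap2a+/-, 10 of them without overlap (beside 8.03% of all genes), and DESeq2 called Arc alone. Of the 11 other ligands tested, 8 had a higher mean in the libraries labelled Tfap2b+/- than in wild type. The 2 of smallest p in that list were Fgf7 at 0.933 ± 0.263 CPM and Fgf17 at 0.544 ± 0.263 CPM. Both lay higher without overlap, beside 8.84% of all genes. Both are close to the limit of counting, and neither passed (edgeR adjusted p = 0.482 and 0.497).

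The libraries labelled Tfap2b+/- also differed from the other groups in an RNA measure, and their tissue marker sums varied from library to library. Reads that met no annotated exon on the counted strand made up 11.1% to 11.8% of fragments in them, 7.30% to 8.86% in wild type and 8.07% to 8.96% in Tfap2a+/-. These include reads on exons of the opposite strand. Summed astrocyte markers, such as Slc1a2 and Slc1a3, ran from 4294 to 5347 CPM in them, from 5479 to 5854 CPM in wild type and from 5177 to 6404 CPM in Tfap2a+/-, with 9 of 9 tested and none at 0. Slc1a2 makes up most of that sum, at 3615 ± 587 CPM beside 4293 ± 312 CPM in wild type (SD, n = 3); of the 9 markers, 4 had a higher and 5 a lower mean than wild type, and the list's median was -0.0048. Olfactory bulb markers summed to 32.6, 17.4 and 171 CPM in libraries 1 to 3 of that label. Wild type had 8.31 to 19.8 CPM, with overlap, and 6 of 8 markers were tested, with Tbx21 at 0 in at least 1 library. Thalamic markers summed to 639, 1068 and 242 CPM in libraries 1 to 3 of that label beside 286 to 372 CPM in wild type, so library 3 lay under all wild-type libraries. The part of these in the low Spry2 and Dusp6 was not tested. Without the 3 libraries rich in choroid plexus RNA or Tph2, the log2 folds against wild type were -0.40 for Spry2 and -0.75 for Dusp6.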

How the data were processed

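Polyadenylated RNA from 9 brain samples was sequenced with a strand-keeping kit. The authors deposited whole-number counts per gene, as STAR writes them. Per the submitters' processing notes the tools were STAR 2.6.1d, cutadapt 2.4 and edgeR, and the build was GRCm38.p6; no annotation release is named in them. Reverse-strand counts were used; forward-strand counts made up 4.16% to 4.94% of stranded counts. Rows naming no gene (15.5% to 19.7% of fragments) were left out. Of 54446 identifiers, 54409 were found in GENCODE M21, ignoring versions. A count of 0 allows up to 0.101 to 0.141 CPM (3 counts), which covers counting error only.

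Genes kept by filterByExpr were tested with edgeR 4.0.16 in R 4.3.3, using TMM and the quasi-likelihood F-test on genotype, all 9 libraries in 1 fit, with Benjamini-Hochberg adjustment at 0.05; the test was tried on simulated data. Log2 CPM used a prior count of 2. Values are mean ± SD, folds have their SE, and intervals are 95%. Within-genotype correlations used all 216 arrangements of libraries within genotypes. No label ties libraries to separate animals; p-values then measure only how far these samples spread, and that spread may be technical.

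The genes and lists were chosen with earlier results of these data known. Named genes were the 10, Tfap2a and Tfap2b, 2 of smallest p per list and comparison with wild type, 2 of highest mean per marker list, and 3 of highest r with Etv1 or Fgf10; Tph2 and Rax, Hcrt, Agrp, Six6 and Tbx21 were named after their values were seen. Some genes that the rule names are not reported here. Alternatives were DESeq2 1.42.0, its size factors, other filters, unstranded counts, a replicate block, only the 2 genotypes compared, and libraries left out.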

Additional observations from a re-analysis of the deposited data

How the results depend on the processing

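Of 442 alternative values of the 26 folds with a test, 1 crossed the threshold: Spry2 between the heterozygotes, called by DESeq2 (adjusted p = 0.0281). In 10 of all 30 folds an alternative turned the direction, all with a reported size of at most 0.15. Etv1 and Fgf10 stayed lower in Tfap2a+/- than in wild type in every alternative (log2 folds -0.90 to -0.67 and -1.29 to -0.89), as did Spry2 and Dusp6 in the libraries labelled Tfap2b+/- (-0.50 to -0.28 and -0.97 to -0.56). These groups did not overlap, so leaving out libraries could hardly turn the direction. Etv1 and Fgf10 were also chosen by these values, so nothing is read from their kept direction. The cause of the changes below was not tested.

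Genes called by edgeR numbered 0 in each comparison. In Tfap2a+/- against wild type they were 30 with DESeq2, 2 with no filter and 0 to 3 with each library left out (3 without Tfap2a+/- library 2). For the libraries labelled Tfap2b+/- they were 175 with DESeq2, 2 without the 3 libraries rich in choroid plexus RNA or Tph2 and 0 to 4 with each left out (4 without library 3 and 2 without library 1 of that label). Between the heterozygotes they were 221 with DESeq2, 7 with no filter, 1 without those 3 and 0 to 31 with each left out (31 without library 3 and 2 without library 1 labelled Tfap2b+/-, 3 without Tfap2a+/- library 2). With the replicate number as a block the count was 0 in all 3 comparisons. Correlations of same-numbered libraries ran from -0.35 to 0.34, and 0, 1 and 2 of 3 libraries correlated best with their own number. No clear pairing by number was seen, and 3 libraries a group are too few to exclude it.

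With each library left out in turn, folds against wild type in Tfap2a+/- ran from -0.20 to 0.16 for Etv4, -0.14 to 0.31 for Etv5, -0.34 to 0.025 for Fgfr2 and -0.25 to 0.17 for Dusp6. In the libraries labelled Tfap2b+/- they ran from -0.069 to 0.11 for Etv4, -0.33 to 0.17 for Fgfr1, -0.056 to 0.23 for Fgfr2 and -0.13 to 0.20 for Fgfr3. Between the heterozygotes they ran from -0.23 to 0.13 for Etv4 and -0.29 to 0.045 for Fgfr3. The correlation of Etv1 and Fgf10 ran from -0.69 to 0.25, and was positive without Tfap2a+/- library 1 (0.25) or 2 (0.16). Etv4 in Tfap2a+/- was -0.011 with no filter and -0.013 with the replicate block. With unstranded counts Etv4 was -0.0012 in the libraries labelled Tfap2b+/- and 0.012 between the heterozygotes. Without the 3 libraries, Etv5 in Tfap2a+/- was -0.045, Fgfr1 and Fgfr3 in the libraries labelled Tfap2b+/- were 0.031 and -0.20, and Etv4 and Fgfr3 between the heterozygotes were 0.073 and 0.12.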
